A study of Mus musculus with 8 samples.

Results

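The 10 genes described here are the TGF-beta ligands *Tgfb1*, *Tgfb2* and *Tgfb3*, the receptors *Tgfbr1*, *Tgfbr2*, *Tgfbr3* and *Acvrl1*, and the intracellular mediators *Smad2*, *Smad3* and *Smad7*. They were chosen by name from the 54532 genes of the deposited count table, and each name occurred once. RNAseq had been performed on mG+ (GFP+) cells sorted by FACS from female mice aged 8 months that carried the mTmG reporter, in which Cre activity switches membrane Tomato to membrane GFP. The WT mice were Tie2e-cre; TERT+/+; mTmG and the EC-*Tert*-KO mice were Tie2e-cre; TERTfl/fl; mTmG, so that both genotypes expressed Cre under the Tie2e promoter, which the study describes as specific for endothelial cells (EC), and both carried the reporter. Cells came from subcutaneous adipose tissue (SAT) of mice fed high-fat diet (HFD) between the ages of 1 and 8 months. The other sources were SAT, visceral adipose tissue (VAT) and gastrocnemius muscle of chow-fed mice. These are 4 pairs with 1 library per genotype in each, 8 libraries in all, and whether a library pooled cells of several mice is not stated.

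The TGF-beta ligands are secreted in a latent form and, once released, bind the type 2 receptor encoded by *Tgfbr2*, which recruits and phosphorylates the type 1 receptor encoded by *Tgfbr1* (ALK5). ALK5 phosphorylates SMAD2 and SMAD3, which enter the nucleus with SMAD4 and act as transcription factors, while SMAD7 is an inhibitor that is itself induced by the pathway. In the endothelium a further type 1 receptor, ALK1, encoded by *Acvrl1*, carries signals mainly of the circulating ligands BMP9 and BMP10 to SMAD1 and SMAD5, with endoglin (*Eng*) as a co-receptor. The pathway is known for its part in vessel maturation, in fibrosis and in the secretory program of senescent cells.

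The ligands with the highest and the lowest level per length in these libraries, *Tgfb1* and *Tgfb2*, also had upstream sequences of unlike composition, shown here because that composition is a feature the choice of genes did not use. The 250 bases before the RefSeq start of *Tgfb1* (chr7:25686752-25687001, plus strand, GRCm38.p6) and of *Tgfb2* (chr1:186705990-186706239, minus strand) are given from 5′ to 3′ along the gene. Capitals mark matches, on either strand, to the GC box core CCGCCC, the SMAD element core CAGAC, the TATA box core TATAAA and the E-box CACGTG.
Tgfb1: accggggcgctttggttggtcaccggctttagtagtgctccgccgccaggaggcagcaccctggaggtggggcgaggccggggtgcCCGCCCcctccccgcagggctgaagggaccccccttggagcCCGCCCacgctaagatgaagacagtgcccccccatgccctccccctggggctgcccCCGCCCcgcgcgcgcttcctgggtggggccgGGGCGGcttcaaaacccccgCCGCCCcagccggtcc
Tgfb2: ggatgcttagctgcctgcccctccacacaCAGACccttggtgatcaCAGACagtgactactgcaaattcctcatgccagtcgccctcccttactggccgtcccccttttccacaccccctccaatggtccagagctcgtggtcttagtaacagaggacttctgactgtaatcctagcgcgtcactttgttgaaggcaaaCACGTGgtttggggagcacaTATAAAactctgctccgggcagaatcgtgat
The *Tgfb1* window was 75.2% G or C and held 5 GC box cores and none of the other 3 motifs. The *Tgfb2* window was 53.6% G or C and held 1 TATA box core that began 31 bases before the start, 1 E-box that began 51 bases before it, and 2 SMAD element cores. Over 32851 windows of the same length in the RefSeq table, the median G or C content was 52.4%, and 32.7% held the GC box core, 42.2% the SMAD element core, 12.4% the TATA box core and 6.02% the E-box. A window was at hand for 5 of the 10 genes, and the first window of *Tgfbr1* and that of *Smad3* were also rich in G and C (74.8% and 69.2%), with 2 GC box cores each. The other *Tgfbr1* window and that of *Tgfbr2* were 52.8% and 58.4% G or C, with 0 GC box cores and 1 SMAD element core each. Yet *Tgfbr2* was 2nd to 4th of the 10 genes per length in every library. A match of letters is not evidence of binding.

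Library totals ran from 6214269 to 18855772 counts. *Tert*, the deleted gene, had 114 and 0 counts (WT and EC-*Tert*-KO) in SAT on HFD, 70 and 11 in SAT on chow and 24 and 7 in muscle, but 3 and 9 in VAT, so that the VAT genotypes are those of the labels only. All 15 endothelial markers had counts in each library, and their summed level was 335 to 810 CPM (counts relative to the TMM-scaled library total, in units of 1e6) in the 4 SAT libraries and 2129 to 3011 CPM in VAT and muscle. Markers of other cells were present too: 10 macrophage markers summed to 9761 and 9673 CPM in VAT against 211 to 860 elsewhere, 10 neutrophil markers to 26811 and 30615 in muscle against 79.5 to 1007 elsewhere, and 9 T cell markers to 1839 to 3854 in SAT against 271 to 759 in VAT and muscle. The nuclear RNA *Malat1* stood at 292 CPM in WT SAT on chow against 2149 to 5836 in the other 7 libraries, and a single gene, *Gm26917*, took 9.72% of the counts of WT SAT on HFD. In bulk libraries, fewer cells of a type and less RNA per cell cannot be told apart.

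Levels of different genes were compared per length, as CPM per kilobase of gene length. *Tgfb1* was the leading ligand in every library, at 49.4 to 106 CPM per kb, and made up 90.0% to 96.6% of the 3 ligands together. *Tgfb3* followed at 1.65 to 6.27 and *Tgfb2* at 0 to 2.20 CPM per kb, with *Tgfb3* above *Tgfb2* in 7 of 8 libraries and below it in WT VAT. Among the receptors *Tgfbr2* ran from 27.3 to 69.6 CPM per kb and lay above *Tgfbr1* (6.36 to 15.9) in all 8 libraries, by 2.65-fold to 7.01-fold. *Tgfbr3*, the co-receptor betaglycan, lay between 7.87 and 18 CPM per kb.

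*Acvrl1* and *Smad7* changed rank most. *Acvrl1* was 8th or 9th of the 10 genes per length in SAT on HFD, 4th and 8th in WT and EC-*Tert*-KO SAT on chow, 3rd in both VAT libraries and 2nd in both muscle libraries. *Smad7* was 1st in both libraries of SAT on HFD and in EC-*Tert*-KO SAT on chow, but 5th in WT SAT on chow and 8th and 6th in VAT. The inhibitor exceeded *Smad3* per length in 6 libraries, by up to 4.52-fold in EC-*Tert*-KO SAT on chow, and was 0.48 and 0.53 times *Smad3* in the VAT libraries. From the lowest to the highest library, *Tgfb2* went from 0 to 12.8 CPM, *Acvrl1* covered a 17.9-fold range of CPM and *Smad7* 7.68-fold. *Tgfb3* covered 3.81-fold and *Smad2* 3.42-fold, and *Tgfb1*, *Tgfbr1*, *Tgfbr2*, *Tgfbr3* and *Smad3* covered 2.13-fold to 2.55-fold.

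**Figure D1:**
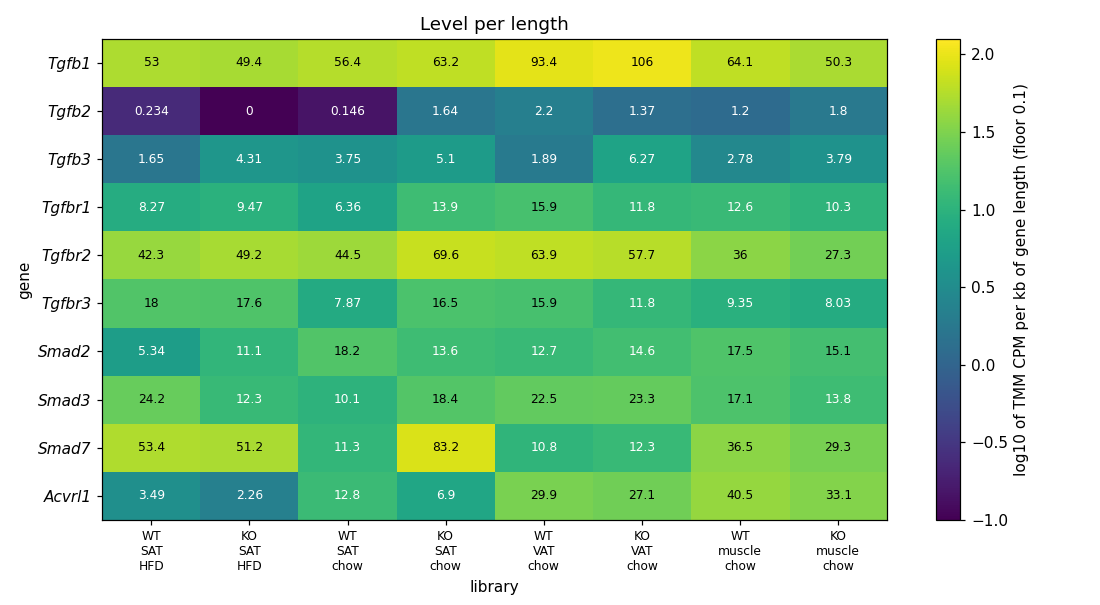
Level of each gene (rows) in each library (columns) as TMM CPM per kilobase of gene length, printed in each cell and shaded on a log10 scale. *Tgfb1* and *Tgfbr2* are bright in all 8 libraries, *Tgfb2* and *Tgfb3* dark, and *Acvrl1* goes from 2.26 in EC-*Tert*-KO SAT on HFD to 40.5 in WT muscle.

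*Tgfb1* (ENSMUSG00000002603, chromosome 7, 25687002 to 25705077, plus strand, GRCm38), the main TGF-beta isoform of blood and immune cells, stood in WT and EC-*Tert*-KO at 267 and 249 CPM in SAT on HFD, 284 and 319 in SAT on chow, 323 and 253 in muscle, and 471 and 532 in VAT. Both VAT libraries lay above the other 6, and the genotypes differed by at most 1.28-fold in any pair. The log2 ratio of EC-*Tert*-KO to WT was −0.10 (95% counting interval −0.18 to −0.02) in SAT on HFD and 0.17 (0.11 to 0.22) in SAT on chow. It was 0.18 (0.12 to 0.23) in VAT and −0.35 (−0.41 to −0.29) in muscle. These intervals, here and below, cover counting error in 2 libraries and not the spread between mice.

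*Tgfb2* (ENSMUSG00000039239, chromosome 1, 186622792 to 186705989, minus strand), an isoform with roles in heart and vessel development, had 9 and 0 counts in SAT on HFD, 14 and 158 in SAT on chow, 115 and 144 in muscle, and 114 and 108 in VAT. The 3 lowest libraries, at 0 to 1.35 CPM, were both of SAT on HFD and the WT library of SAT on chow, and the other 5 held 6.97 to 12.8 CPM. With the 9 WT counts taken as measured, and a floor of 3 counts in the EC-*Tert*-KO library, *Tgfb2* was at least 5.70-fold lower in EC-*Tert*-KO SAT on HFD. The 95% counting interval of that ratio, which includes the counting error of the 9, reached up to −1.91 on the log2 scale, a smaller difference. In SAT on chow its ratio was 3.45 on the log2 scale (2.70 to 4.40).

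*Tgfb3* (ENSMUSG00000021253, chromosome 12, 86056745 to 86079041, minus strand), an isoform typical of mesenchymal cells, stood in WT and EC-*Tert*-KO at 5.57 and 14.6 CPM in SAT on HFD, 12.7 and 17.2 in SAT on chow, 9.39 and 12.8 in muscle, and 6.38 and 21.2 in VAT. It was higher in EC-*Tert*-KO in each of the 4 pairs, by 1.36-fold to 3.31-fold, and was the only one of the 10 with that pattern. Of 13598 genes with enough counts in all pairs, 5.17% were higher in EC-*Tert*-KO in all 4. A summed level of 12 stromal markers was also higher in 3 pairs, with ratios of EC-*Tert*-KO to WT of 3.26 (SAT on chow), 2.01 (VAT) and 1.71 (muscle), and not in the HFD pair, where that ratio was 0.847. The *Tgfb3* ratios in the same order were 1.36, 3.31, 1.36 and 2.60, so that only the direction was shared in those 3 pairs, not the order of size. For 8 mural cell markers the ratios in these 3 pairs were 3.89, 3.40 and 1.65, and in SAT on HFD 0.917. The part of these cells in the *Tgfb3* ratios was not tested.

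**Figure D2:**
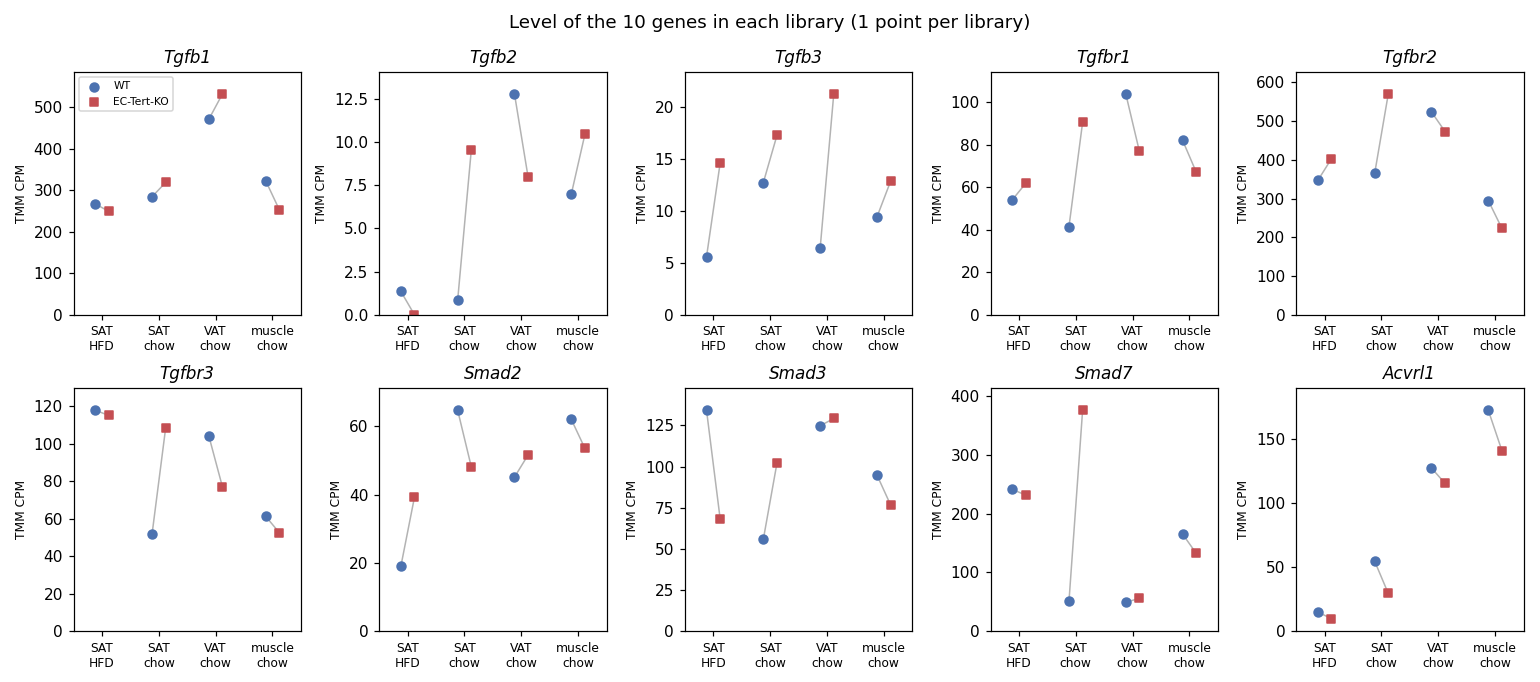
TMM CPM (vertical axis, from 0, own scale in each panel) of each gene in WT (circles) and EC-*Tert*-KO (squares) libraries, with 1 point per library and a line joining each pair. The EC-*Tert*-KO point is the higher one in all 4 pairs for *Tgfb3* and the lower one in all 4 for *Acvrl1*, while *Smad7* goes from 51.0 to 376 in SAT on chow and stays within 1.25-fold in the other pairs.

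Among the receptors, *Tgfbr2* (ENSMUSG00000032440, chromosome 9, 116084293 to 116175360, minus strand) stood in WT and EC-*Tert*-KO at 347 and 403 CPM in SAT on HFD, 365 and 570 in SAT on chow, 295 and 223 in muscle, and 524 and 473 in VAT. Both muscle libraries were below the other 6. Its ratio was above 0 on the log2 scale in both SAT pairs, at 0.22 (0.14 to 0.29) and 0.64 (0.60 to 0.69), and below 0 in VAT and muscle, at −0.15 (−0.20 to −0.09) and −0.40 (−0.47 to −0.34).

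The type 1 receptor gene *Tgfbr1* (ENSMUSG00000007613, chromosome 4, 47353222 to 47414931, plus strand) stood at 54.0 and 61.9 CPM in SAT on HFD, 41.5 and 90.6 in SAT on chow, 82.1 and 67.1 in muscle, and 104 and 76.8 in VAT. The WT library of SAT on chow was the lowest of the 8 and the WT library of VAT the highest, and the 2 genotypes of SAT on chow lay 2.18-fold apart. *Tgfbr3* (ENSMUSG00000029287, chromosome 5, 107106570 to 107289629, minus strand) had the same pair stand out, with 51.5 and 108 CPM in SAT on chow against 118 and 115 in SAT on HFD, 104 and 76.9 in VAT, and 61.2 and 52.5 in muscle. In that pair the log2 ratios were 1.12 (0.99 to 1.26) for *Tgfbr1* and 1.07 (0.95 to 1.19) for *Tgfbr3*. In VAT both were lower in EC-*Tert*-KO, at −0.44 for each (−0.56 to −0.31 and −0.57 to −0.31).

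*Acvrl1* (ENSMUSG00000000530, chromosome 15, 101128522 to 101145336, plus strand), the endothelial receptor ALK1, stood in WT and EC-*Tert*-KO at 14.9 and 9.66 CPM in SAT on HFD, 54.7 and 29.4 in SAT on chow, 173 and 141 in muscle, and 128 and 115 in VAT. It was lower in EC-*Tert*-KO in each of the 4 pairs, and no other of the 10 genes was lower in all 4. For SAT the log2 ratios were −0.89 (−1.06 to −0.73) on chow and −0.62 (−1.02 to −0.23) on HFD, for muscle −0.29 (−0.38 to −0.21), and for VAT −0.14 (−0.26 to −0.03). Of the 13598 genes, 5.09% were lower in all 4 pairs. The endothelial marker sum was higher in EC-*Tert*-KO in 3 pairs and lower in VAT: its ratio of EC-*Tert*-KO to WT was 1.12 and 1.41 in SAT (HFD, then chow), 0.810 in VAT and 1.20 in muscle. Per 100 CPM of endothelial markers, *Acvrl1* went, for the pairs as just listed, from 4.45 to 2.56, from 9.53 to 3.63, from 4.85 to 5.42 and from 6.87 to 4.69 CPM, so that it was lower in EC-*Tert*-KO in 3 of the 4 pairs on this scale. In SAT on HFD the higher sum was not shared by every marker, beside library totals of 6214269 and 11117656 counts (WT and EC-*Tert*-KO). There *Pecam1* had 1001 and 2647 counts and *Tek* 40 and 285, but *Kdr* had 166 and 229 and *Flt1* 125 and 95.

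The signal transducer gene *Smad2* (ENSMUSG00000024563, chromosome 18, 76241580 to 76305731, plus strand) stood in WT and EC-*Tert*-KO at 19.0 and 39.3 CPM in SAT on HFD, 64.8 and 48.2 in SAT on chow, 62.1 and 53.6 in muscle, and 45.1 and 51.6 in VAT. Both libraries of SAT on HFD were below the other 6. Its log2 ratio was 1.05 (0.76 to 1.34) on HFD and −0.43 (−0.56 to −0.29) in SAT on chow. *Smad3* (ENSMUSG00000032402, chromosome 9, 63646767 to 63757994, minus strand), its partner, went the other way in the same pairs, at −0.98 (−1.11 to −0.84) and 0.87 (0.76 to 0.99), from 134 to 68.2 and from 55.7 to 102 CPM. In VAT *Smad3* stood at 125 and 129 CPM and in muscle at 94.9 and 76.7. The ratio of *Smad2* to *Smad3* per length was 0.22 and 0.90 (WT and EC-*Tert*-KO) in SAT on HFD, 1.81 and 0.74 in SAT on chow, and 0.56 to 1.09 in VAT and muscle.

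*Smad7* (ENSMUSG00000025880, chromosome 18, 75367529 to 75395935, plus strand), the inhibitory SMAD, stood in WT and EC-*Tert*-KO at 241 and 231 CPM in SAT on HFD, 51.0 and 376 in SAT on chow, 165 and 132 in muscle, and 48.9 and 55.8 in VAT. The EC-*Tert*-KO library of SAT on chow was the highest of the 8, and the WT library of that pair lay beside the 2 VAT libraries at the low end. The ratio in SAT on chow, 2.88 on the log2 scale (2.78 to 2.99) or 7.37-fold, was far from those of the other pairs, which lay between −0.32 and 0.19. In that pair *Malat1* went from 292 to 5836 CPM and the stromal marker sum from 760 to 2476 CPM, and their part in the *Smad7* ratio was not tested.

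Within pairs, a gene was counted as past 2-fold when its log2 ratio was at least 1 or at most −1 and its mean count in the pair at least 10. With 1 library per genotype these are counts without a test. In SAT on HFD, 2 of 9 members were at least 2-fold higher in EC-*Tert*-KO (*Tgfb3* and *Smad2*) and none at least 2-fold lower, with 17.8% and 16.6% of all genes past the same folds. *Tgfb2* had too few counts in that pair to be included. In SAT on chow, 4 of 10 were higher (*Tgfb2*, *Tgfbr1*, *Tgfbr3* and *Smad7*) and none lower, beside 26% and 19.2% of all genes. In VAT, *Tgfb3* alone was higher and none lower, beside 8.21% and 6.81%, and in muscle none was past 2-fold, beside 8.75% and 6.16%. The median log2 ratio of the members was −0.03, 0.76, −0.05 and −0.29 in the pairs as listed here, and that of all genes 0.04, 0.00, 0.01 and −0.01. The counting interval lay above 0 in one pair and below 0 in another for 8 of the 10 members and for 57% of all genes with enough counts in at least 2 pairs.

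**Figure D3:**
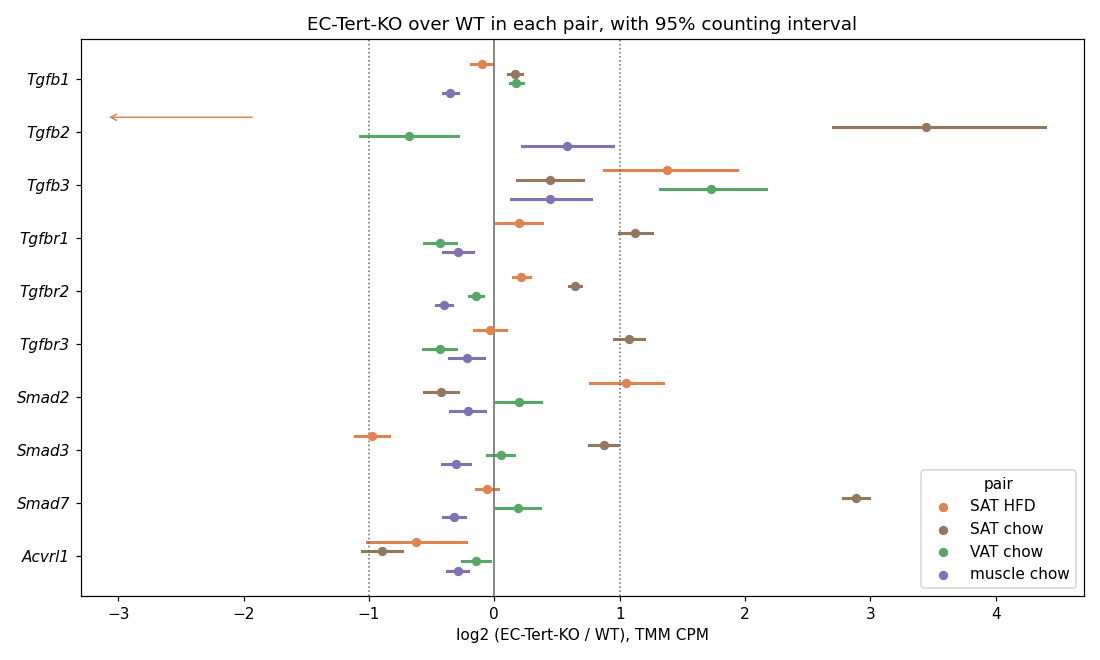
Log2 ratio of EC-*Tert*-KO to WT (horizontal axis) for each gene in each of the 4 pairs, with the 95% counting interval, and dotted lines at 2-fold. The arrow is *Tgfb2* in SAT on HFD, with 0 counts in EC-*Tert*-KO. *Smad7* at 2.88 and *Tgfb2* at 3.45 in SAT on chow lie farthest to the right, and in muscle no gene reaches a dotted line.

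In all 4 pairs together, the quasi-likelihood test of edgeR, which took tissue and diet as a block, called 0 of the 10 members at an adjusted p of 0.05, beside 1 of 16971 genes (0.00589%). That gene was *H2-Ea-ps*, named after its value was seen. At an unadjusted p under 0.05, edgeR had 1 member (*Tgfb3*) and 279 genes, and DESeq2 had the same member and 599 genes and called 0 members and 19 genes after adjustment. The fitted log2 ratio of *Tgfb3* was 0.99 (SE 0.40) and that of *Acvrl1* −0.48 (SE 0.22), each with an adjusted p of 1 by edgeR. *Smad7* was fitted at 0.59 (SE 0.52), and the other 7 members lay between −0.09 and 0.14. Of these 7, *Tgfb2* was fitted at 0.02 with an SE of 3.08, too wide to give a direction or size. The pairs differ in tissue and diet, so that this test asks for a ratio shared by all 4.

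The tissue and diet contrasts took the WT and EC-*Tert*-KO library of a condition as its 2 samples, with genotype as a term in the same edgeR fit. VAT was above SAT on chow for *Acvrl1*, by 1.59 on the log2 scale (SE 0.31, adjusted p = 0.0298, 3.02-fold), and it was the only member called by edgeR (DESeq2 called *Acvrl1* and *Tgfb1*), beside 3.31% of genes higher and 1.74% lower. Muscle was above SAT on chow for *Acvrl1* as well, by 1.95 (SE 0.32, adjusted p = 0.0328, 3.86-fold), again the only member called, by DESeq2 as well, beside 1.11% of genes higher and 0.147% lower. Muscle and VAT differed for none of the 10 members, beside 0.884% of genes higher and 1.05% lower, and for *Acvrl1* this contrast was 0.36 (SE 0.30, adjusted p = 0.792). At an unadjusted p under 0.05 edgeR had 2 members there, *Tgfb1* and *Tgfbr2*, and DESeq2 called 0. The shares given here are those of edgeR. Of the 16971 genes, DESeq2 called 2280 in VAT over SAT, 1053 in muscle over SAT and 1253 in muscle over VAT. By condition *Acvrl1* was 157 ± 22.3 CPM in muscle, 121 ± 8.54 in VAT, 42.0 ± 17.9 in SAT on chow and 12.3 ± 3.71 in SAT on HFD (mean ± SD, n = 2 libraries), and the libraries of neighbouring conditions in this order did not overlap.

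The *Acvrl1* calls rested on few libraries. The log2 difference stayed between 1.32 and 1.94 for VAT over SAT and between 1.69 and 2.31 for muscle over SAT when any 1 library was left out. The adjusted p of VAT over SAT passed the threshold no longer without either VAT library or either muscle library (0.0603 to 0.209, edgeR), and that of muscle over SAT without any of these 4 or without the EC-*Tert*-KO library of SAT on HFD (0.0556 to 0.312, edgeR). The endothelial marker sum was also lower in SAT, and covered an 8.99-fold range over the 8 libraries against 17.9-fold for *Acvrl1*. Single markers did not share the range of the sum. *Pecam1* held the most counts of the markers in SAT on HFD (1001 and 2647, WT and EC-*Tert*-KO) and had 7797 and 7502 in muscle. *Cdh5* had 94 and 275 counts in SAT on HFD and 5428 and 5027 in muscle. Per 100 CPM of endothelial markers the range of *Acvrl1* was 3.72-fold, from 2.56 to 9.53, with the highest value in WT SAT on chow. The part of the endothelial share of each library in these calls was not tested.

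**Figure D4:**
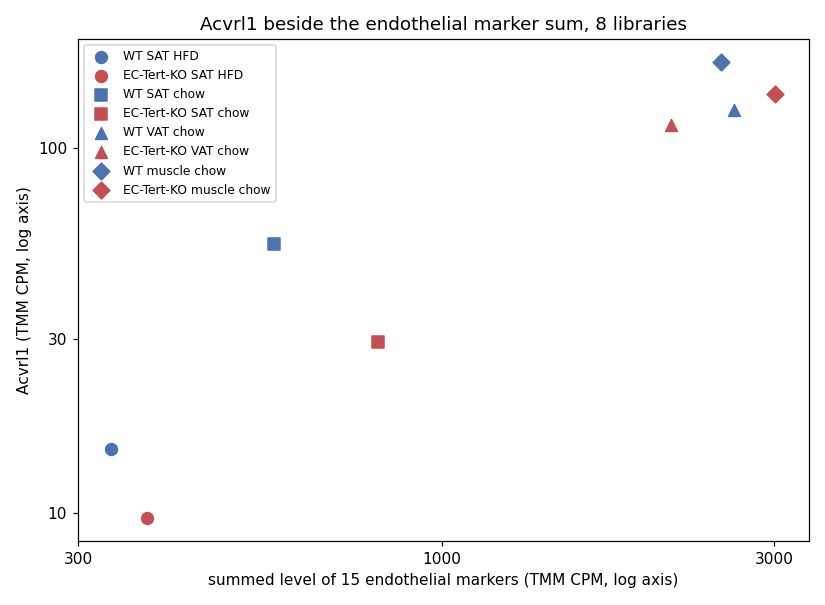
*Acvrl1* (vertical, TMM CPM, log axis) beside the summed level of 15 endothelial markers (horizontal, TMM CPM, log axis), with 1 point per library, shaped by tissue and diet and coloured by genotype. The 4 VAT and muscle libraries lie at the upper right, at 2129 CPM of markers or more and 115 CPM of *Acvrl1* or more, and in each pair of the same shape the EC-*Tert*-KO point is the lower one.

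Between diets, HFD over chow in SAT, no member passed and neither did any of the 16971 genes (0% higher and 0% lower by edgeR). At an unadjusted p under 0.05 there were 2 members, *Acvrl1* and *Smad2*, and 1354 genes, while DESeq2 called 246 genes and 1 member, *Acvrl1*. *Acvrl1* was lower on HFD by a fitted 1.75 on the log2 scale (−1.75, SE 0.32, adjusted p = 0.189 by edgeR) and its libraries on HFD and chow did not overlap. For *Smad7* the answer differed by genotype: the WT libraries went from 51.0 on chow to 241 CPM on HFD and the EC-*Tert*-KO libraries from 376 to 231, with a fitted difference of 0.39 (SE 0.72, adjusted p = 0.926 by edgeR) for both together. The difference between the genotypes in this response was not tested, for want of replicates.

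Other members had tissue differences that did not pass by edgeR. *Tgfb1* was fitted 0.73 higher in VAT than in SAT (SE 0.32, adjusted p = 0.245, edgeR), while DESeq2 called it at 0.85 (adjusted p = 0.0348), in the libraries where macrophage markers summed to 9761 and 9673 CPM, and the part of macrophages in that value was not tested. *Smad7* was fitted 1.81 lower in VAT than in SAT (−1.81, SE 0.73, adjusted p = 0.216, edgeR), but its SAT libraries on chow, at 51.0 and 376 CPM, included the highest of the 8, and the WT one lay between the VAT libraries. Leaving out the EC-*Tert*-KO library of SAT on chow left 1 library in that condition. The fitted VAT over SAT of *Tgfbr1*, *Tgfbr3* and *Smad3* was then 1.20, 0.92 and 1.41, against 0.49, 0.20 and 0.67 with all libraries. That of *Acvrl1* was 1.325 against 1.59, and that of *Smad7* 0.080 against −1.81.

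**Figure D5:**
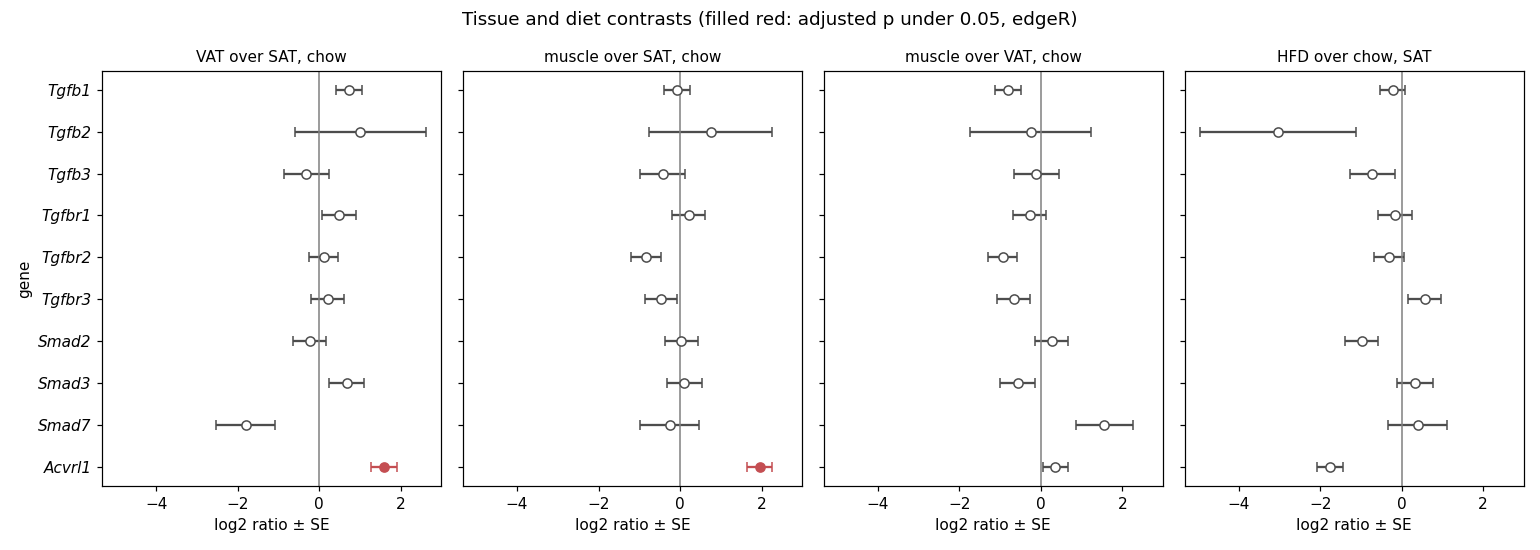
Log2 ratio ± SE of each gene (rows) in the 4 tissue and diet contrasts of the edgeR fit (panels), filled red where the adjusted p is under 0.05. *Acvrl1* is filled in VAT over SAT and in muscle over SAT, and its point in HFD over chow, at −1.75, is open.

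The rest of the pathway was followed in 7 lists. Between genotypes across the pairs, 0 of their 65 tested genes were called by either edgeR or DESeq2. At an unadjusted p under 0.05 there were 8 and 9 of the 65, beside 279 and 599 of all 16971 genes. With each tool, 5 of them were in the list of 12 targets of TGF-beta. Of the other ligands, 9 of 13 could be tested, and by edgeR 2 rose in VAT over SAT and 2 in muscle over SAT, beside the 3.31% and 1.11% of all genes, while in muscle over VAT 1 rose and 1 fell (*Inhba* and *Bmp2*), beside 0.884% and 1.05%. DESeq2 called 3 in VAT over SAT, adding *Gdf15*, 2 in muscle over SAT, 4 in muscle over VAT and 1 in HFD over chow. Of all 16971 genes, it called 2280, 1053, 1253 and 246 in these contrasts. *Bmp2* stood at 65.2 and 69.0 CPM in VAT against 3.33 to 12.8 in the other 6 libraries (VAT over SAT 3.20, adjusted p = 0.0399, edgeR), and *Bmp6*, a ligand made by endothelial cells, at 24.9 to 45.6 in VAT and muscle against 1.35 to 6.51 in SAT (VAT over SAT 2.60, adjusted p = 0.0420, and muscle over SAT 3.42, adjusted p = 0.0395, edgeR). *Inhba*, the activin subunit, was at 28.7 and 34.3 CPM in muscle and at 0 to 2.23 elsewhere (muscle over VAT 4.21, adjusted p = 0.0384, edgeR). *Gdf15*, a stress-induced ligand, reached 139 and 211 CPM in VAT against 2.60 to 31.9 elsewhere, with VAT over SAT at 4.60 (adjusted p = 0.0588, edgeR).

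Of the other receptors, 7 of 10 could be tested, and *Eng*, the partner of *Acvrl1*, was the only one called by edgeR, in VAT over SAT. DESeq2 called *Eng* and *Bmpr2* there and in muscle over SAT, beside 2280 and 1053 of all 16971 genes. *Eng* stood at 262 to 371 CPM in VAT and muscle and 34.6 to 81.3 in SAT, with VAT over SAT at 1.87 (adjusted p = 0.0353, edgeR) and muscle over SAT at 2.02 (adjusted p = 0.0562). *Bmpr2*, the type 2 receptor for BMPs, had 92.6 to 163 CPM in VAT and muscle against 15.9 to 51.8 in SAT (VAT over SAT 2.22, adjusted p = 0.0638, edgeR), and *Acvr1b*, an activin receptor, 36.2 to 54.3 CPM over all libraries. None of the 4 other SMADs tested was called by edgeR or DESeq2 in any contrast (1 at an unadjusted p under 0.05 with each), and the common mediator *Smad4* held 70.5 to 132 CPM, *Smad5* 29.9 to 73.5, *Smad1* 12.9 to 33.9 and the inhibitory *Smad6* 0.846 to 12.6. Median log2 VAT over SAT was 1.52 over the other receptors and −0.08 over all genes.

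Genes that store or release latent TGF-beta gave 2 higher and 1 lower of 13 tested in VAT over SAT by edgeR, beside 3.31% and 1.74% of all genes, and 0 in the other contrasts (2 in muscle over SAT, 7 in muscle over VAT and 2 in HFD over chow at an unadjusted p under 0.05). DESeq2 called 6 in VAT over SAT, 2 in muscle over SAT, 4 in muscle over VAT and 1 in HFD over chow. Beside them it called 2280, 1053, 1253 and 246 of all 16971 genes. *Ltbp4*, a latent TGF-beta binding protein, stood at 429 to 589 CPM in VAT and muscle and 73.1 to 172 in SAT (VAT over SAT 2.08, adjusted p = 0.0379, edgeR), and *Nrros*, which anchors latent TGF-beta on myeloid cells, at 435 and 458 CPM in VAT and 107 to 204 elsewhere (1.77, adjusted p = 0.0376, edgeR). *Ltbp2* was the 1 that fell (−4.58, adjusted p = 0.0472, edgeR). *Thbs1*, an activator of the latent form, stood at 8.77 CPM in WT SAT on chow, 162 to 266 in the other SAT libraries and 1160 to 2587 in VAT and muscle, and *Furin*, which cleaves the precursor, was highest in VAT at 528 and 539. In SAT on chow, 9 of these 13 genes were at least 2-fold higher in EC-*Tert*-KO, with a median of 1.66, beside 26% of all genes. In SAT on HFD 1 of 13 was, beside 17.8%, and in VAT and muscle none, beside 8.21% and 8.75%.

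Inhibitors of the pathway showed no call in any contrast by edgeR or DESeq2 (14 of 15 tested, with at most 2 at an unadjusted p under 0.05 in a contrast). In SAT on chow, 7 of 14 were at least 2-fold higher in EC-*Tert*-KO and none lower, beside 26% and 19.2% of all genes. In SAT on HFD 1 of 13 was higher and 2 lower, beside 17.8% and 16.6% of all genes. In VAT 1 of 14 was higher, beside 8.21%, and in muscle 3, beside 8.75%, where the median of the list was −0.16. The 7 in SAT on chow included the SMAD co-repressors *Skil* (69.9 and 595 CPM) and *Tgif1* (77.3 and 403), *Pmepa1* (22.3 and 74.3) and the ligand-binding proteoglycan *Dcn* (203 and 624), while *Fkbp1a*, which binds the type 1 receptor, stood at 129 and 95.1. *Skil* and *Smad7*, both known to be induced by SMAD signaling, had their highest library in common, and the part of that signaling in their levels was not tested. Of 12 genes known as targets of TGF-beta, *Tgfbi* and *Fn1* were called higher in VAT than in SAT (2.66 and 2.79, adjusted p = 0.0128 and 0.0213, edgeR) and *Postn* lower in muscle than in SAT (−3.04, adjusted p = 0.0232, edgeR). DESeq2 called 2 of the 12 in VAT over SAT, 4 in muscle over SAT and 3 in muscle over VAT, beside 2280, 1053 and 1253 of all 16971 genes. Within SAT on chow, 6 of the 12 were at least 2-fold higher in EC-*Tert*-KO and 1 lower (*Tgfbi*), beside 26% and 19.2% of all genes. In SAT on HFD 2 were higher and 1 lower, beside 17.8% and 16.6%. In VAT and in muscle 3 of 11 were higher and none lower, beside 8.21% and 8.75% of all genes higher. In both pairs the 3 were *Col1a1*, *Col1a2* and *Acta2*. The ratios of EC-*Tert*-KO to WT in VAT and muscle were 2.01 and 1.71 for the stromal marker sum and 3.40 and 1.65 for the mural one. The part of stromal and mural cells in the higher values of these targets was not tested. *Junb* ranged from 1475 to 3520 CPM, and *Col1a2* was 120 to 753 CPM with log2 EC-*Tert*-KO over WT of 1.26 across the pairs (adjusted p of 1, edgeR). None of the 6 targets of BMP and ALK1 was called by edgeR (at most 2 at an unadjusted p under 0.05 in a contrast), and DESeq2 called *Id1* in muscle over SAT: *Id1* stood at 49.0 and 51.9 CPM in muscle and 8.07 to 29.2 elsewhere (muscle over SAT 2.08, adjusted p = 0.0608, edgeR), *Id2* at 68.3 to 175, *Id3* at 53.5 to 102 and *Hey1* at 3.01 to 26.1.

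For each member, the genes with the most similar profile over the 8 libraries were taken by Pearson's r of log2 CPM among the 12368 genes that averaged at least 50 counts, as a description without a test. The 8 libraries share tissues and depth, and with so many genes searched, high values of r are found for any profile. *Acvrl1* was most like *Hey1* (0.99), *Riok3* (0.99) and *Alox5ap* (0.98), and of these *Hey1* is a target of BMP and Notch signaling in endothelial cells. *Tgfb1* was most like *Cd209c* (0.99), *Rab7b* (0.98) and *C3ar1* (0.98), and *C3ar1* encodes a complement receptor of myeloid cells. *Smad7* was most like *Prpf4b*, *Cntrl* and *Cpsf6* (0.97 to 0.98) and *Tgfbr1* like *Tug1*, *Gpcpd1* and *Cic* (0.97 to 0.99), *Tug1* being a long noncoding RNA.

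The remaining profiles were those of *Tgfb2* with *Slc18a2*, *Filip1* and *Ick* (0.98 to 0.99), *Tgfb3* with *Rab10os*, *Scfd2* and *Ptpn5* (0.90 to 0.91), *Tgfbr2* with *Pnrc1*, *Mapkbp1* and *Isy1* (0.93 to 0.97), *Tgfbr3* with *AI504432*, *C920009B18Rik* and *Rbms2* (0.95 to 0.97), *Smad2* with *Atg5*, *Hist1h4i* and *Cox19* (0.98 each), and *Smad3* with *Mid1*, *Rdh10* and *Cachd1* (0.95 to 0.97). Among the members themselves r was lower, from −0.71 (*Tgfbr3* and *Smad2*) to 0.78 (*Tgfb2* and *Acvrl1*). The ligand *Tgfb1* and the inhibitor *Smad7* had r of −0.60.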

How the data were processed

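The 10 genes and the pathway and marker lists were chosen with earlier results of these data known. The analysis started from the raw read counts deposited by the authors, 1 row per Ensembl gene and with no normalization, together with a gene length in bases of the same table (unit other, deposited beside the counts) and the gene positions on GRCm38. The submitters' processing notes name HISAT2 2.0.5, GRCm38 and mm10. The counting program and the use of strand are not given in the sources used here. RNA isolation is described as column-based in the labels and as Trizol extraction in the paper. Of the 10 genes, *Tgfb2*, *Tgfb3*, *Tgfbr3* and *Acvrl1* share exon bases (124 to 297) with another gene of GENCODE M21, none of which had more than 22 counts in a library. The end of *Smad2* is given as in the count table.

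Counts were scaled by TMM factors (0.877 to 1.14) taken over genes that averaged at least 10 counts. CPM are counts over the scaled library total, in units of 1e6. The floor of 3 counts lay between 0.181 and 0.451 CPM. Within a pair, the log2 ratio of EC-*Tert*-KO to WT added a prior of 0.5 counts, in proportion to library size, with the exact conditional binomial (Clopper-Pearson) 95% interval. Intervals and floors cover counting error only, and within a pair there is no p-value. Across libraries, edgeR 4.0.16 (R 4.3.3) was used with robust quasi-likelihood tests on 16971 genes, a term for each of 4 conditions and for genotype, 3 residual degrees of freedom and Benjamini-Hochberg adjustment over all genes tested, with a threshold of 0.05. Whether the 8 libraries came from separate mice is not stated. P-values then measure only the spread between libraries, of different genotypes within a condition, which may be technical. The fit and the interval were tested on simulated data. Alternatives were DESeq2 1.42.0, other scalings, filters, prior counts and models, and each library and pair left out. All 10 genes were named, and of each pathway list the 3 genes with the highest mean CPM and the 2 with the smallest adjusted p. *Ltbp2*, *Postn*, *Col1a1*, *Acta2*, *H2-Ea-ps* and the endothelial markers *Tek*, *Kdr* and *Flt1* were named after their values were seen. Upstream sequences are from RefSeq (GRCm38.p6), matched by symbol, and cover 5 genes, with the members on chromosome 18 (*Smad2* and *Smad7*) left out.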

Additional observations from a re-analysis of the deposited data

Results flagged for a closer look

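For 8 of the 10 genes, the ratio of EC-*Tert*-KO to WT had counting intervals above 0 in one pair and below 0 in another, as it did for 57% of all genes with enough counts in at least 2 pairs. Each pair holds 1 library per genotype, so that the difference between pairs was not tested. The pair of SAT on HFD was left out for *Tgfb2*, which had 9 and 0 counts there. On the log2 scale the highest and lowest such pairs were SAT on chow and muscle for *Smad7* (2.88 and −0.32) and for *Tgfbr2* (0.64 and −0.40), and VAT and muscle for *Tgfb1* (0.18 and −0.35). They were SAT on chow and VAT for *Tgfb2* (3.45 and −0.68), *Tgfbr1* (1.12 and −0.44) and *Tgfbr3* (1.07 and −0.44). For both receptor-regulated SMADs they were the SAT pairs of the 2 diets, in opposite order: *Smad2* was at 1.05 on HFD and −0.43 on chow, and *Smad3* at 0.87 on chow and −0.98 on HFD. The higher value came from SAT on chow for 6 of the 8 genes, the pair in which *Malat1* went from 292 to 5836 CPM. The part of that difference in these ratios was not tested.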

How the results depend on the processing

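The number of members past 2-fold within a pair stayed within 1.5 times its value under every other scaling, filter and prior count run, and no called ratio changed sign. Scaling by library totals moved the median log2 ratio of all genes in SAT on chow by 0.23, in muscle by 0.17 and in SAT on HFD by 0.09, and DESeq2 size factors moved it by 0.11 in SAT on chow.

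Across the pairs no member was called under any alternative, and 8 of the 10 fitted log2 ratios changed sign with a library or pair left out: *Tgfb1* ran from −0.096 to 0.079, *Tgfb2* from −1.03 to 0.99, *Tgfbr1* from −0.18 to 0.36, *Tgfbr2* from −0.11 to 0.24, *Tgfbr3* from −0.23 to 0.28, *Smad2* from −0.17 to 0.33, *Smad3* from −0.41 to 0.20 and *Smad7* from −0.069 to 0.94. *Tgfb3* and *Acvrl1* kept their direction. *Tgfb1* was at 0.093 with library totals, 0.0041 with upper quartile scaling and 0.0083 without a block, *Smad3* at 0.027 with library totals, and *Tgfb2* at −0.10 by DESeq2.

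Of the members called in VAT over SAT, 2 were called without a count filter (*Acvrl1* and *Smad7*) and 2 by DESeq2 (*Acvrl1* and *Tgfb1*), and 0 to 4 with a library left out. Beside these members, 2116 of 29627 genes were called without a count filter and 2280 of 16971 by DESeq2. The number of all genes called in VAT over SAT also changed widely with the library left out, so that the change was not particular to the members. The number of members called changed with a library left out in muscle over SAT and muscle over VAT too. In muscle over VAT 1 member was called without a filter (*Smad7*), beside 1166 of 29627 genes. In HFD over chow 1 member was called without a filter and 1 by DESeq2 (*Acvrl1* each), beside 289 of 29627 and 246 of 16971 genes. There too the number changed with a library left out. Signs also changed for *Smad7*, in VAT over SAT (−2.82 to 0.080), muscle over SAT (−1.31 to 1.58, and 1.69 within WT) and HFD over chow (−0.63 to 2.25, and −0.70 within EC-*Tert*-KO), and in VAT over SAT for *Tgfbr1* (−0.047 to 1.20, and −0.24 within EC-*Tert*-KO) and *Tgfbr3* (−0.33 to 0.92, and −0.49 within EC-*Tert*-KO). The cause was not tested, beyond the fewer libraries or genes of each fit. A left-out library leaves a condition with 1 library, assumed to vary like the others. The genotypes were paired by tissue and diet in the fit across the pairs, and the labels give no replicate numbers to pair samples by. With 1 library per group, replicate error within a tissue, diet and genotype could not be measured.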
